A study of Mus musculus with 4 samples.

Results

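The 10 genes described here encode enzymes that edit heparan sulfate and glypicans, the membrane-anchored proteins that carry it. They are the endosulfatases Sulf1 and Sulf2, the sulfotransferases Ndst1, Hs6st1, Hs6st2 and Hs3st1, and the glypicans Gpc1, Gpc3, Gpc4 and Gpc6, and they make up 10 of the 22609 genes listed in the count table. The members were taken by symbol from a list drawn up after Sulf1 had been seen to rise steadily in mutant testes. That choice used the comparison of genotypes itself, so the differences between genotypes in the members are given as a description, without p-values. Members called in the fit over all genes are counted beside the share of all genes called, and neither those calls nor their loss in other fits is read as support. The data are RNA-seq counts from polyadenylated RNA of whole mouse testes on postnatal day 3, in a mainly C57BL/6J background. Of the 4 libraries, 2 carried the wild-type TR_alpha_1 receptor (the thyroid hormone receptor alpha 1, encoded by Thra) and 2 a dominant-negative form of it, a receptor that blocks the action of the normal form. The mice were bred from AmhCre animals, in which the promoter of the anti-Müllerian hormone gene drives Cre recombinase in Sertoli cells, and heterozygous carriers of the TRαAMI allele. The series' title places the mutation in Sertoli cells alone, while the RNA came from all cells of the testis. Whether the wild-type animals carried AmhCre or an unrecombined allele, and whether a library holds 1 animal or a pool, is not given in the sources used here. The study asked which genes of the testis depend on this receptor in Sertoli cells, directly or indirectly.

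Heparan sulfate is a sugar chain attached to core proteins at the cell surface and in the matrix, where it binds growth factors such as FGF, Wnt and Hedgehog proteins. Its binding depends on where sulfate groups sit: Ndst enzymes exchange acetyl for sulfate on nitrogen, Hs6st enzymes add sulfate at the 6-O position, and Hs3st enzymes add the rarer 3-O sulfate that forms the antithrombin site. Sulf1 and Sulf2 act outside the cell and remove 6-O sulfates from finished chains, which lowers the response of cells to FGF and releases Wnt. Glypicans are held in the membrane by a lipid anchor and present or sequester the same ligands. In the testis, heparan sulfate proteoglycans are made by Sertoli and peritubular cells and are part of the wall of the seminiferous tubule.

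Promoter windows are shown for Sulf2 and Gpc3, which were among the members higher in mutant testes, and for Gpc4, the neighbour of Gpc3 on the X chromosome whose groups overlapped. Each runs from 250 bases before to 50 bases after a transcription start, 5′ to 3′ on the gene's strand, from RefSeq on GRCm38.p6. Capitals mark exact matches on either strand to AGGTCA, the core hexamer bound by nuclear receptors such as Thra, to the GC box GGGCGG and to the TATA box TATAAA.
Sulf2 upstream start promoter, chr2:166155634-166155933, minus strand: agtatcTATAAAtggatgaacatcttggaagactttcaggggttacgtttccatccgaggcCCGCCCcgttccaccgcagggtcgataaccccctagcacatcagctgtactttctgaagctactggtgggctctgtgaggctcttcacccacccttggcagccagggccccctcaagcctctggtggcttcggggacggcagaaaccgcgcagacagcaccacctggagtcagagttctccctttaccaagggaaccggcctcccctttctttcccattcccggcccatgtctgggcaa
Sulf2 downstream start promoter, chr2:166155236-166155535, minus strand: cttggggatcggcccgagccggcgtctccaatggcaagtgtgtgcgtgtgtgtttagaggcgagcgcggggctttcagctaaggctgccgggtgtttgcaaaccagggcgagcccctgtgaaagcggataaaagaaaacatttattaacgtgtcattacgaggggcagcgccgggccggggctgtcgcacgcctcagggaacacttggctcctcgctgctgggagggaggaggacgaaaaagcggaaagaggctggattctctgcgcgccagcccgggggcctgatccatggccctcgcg
Gpc3 promoter, chrX:52613925-52614224, minus strand: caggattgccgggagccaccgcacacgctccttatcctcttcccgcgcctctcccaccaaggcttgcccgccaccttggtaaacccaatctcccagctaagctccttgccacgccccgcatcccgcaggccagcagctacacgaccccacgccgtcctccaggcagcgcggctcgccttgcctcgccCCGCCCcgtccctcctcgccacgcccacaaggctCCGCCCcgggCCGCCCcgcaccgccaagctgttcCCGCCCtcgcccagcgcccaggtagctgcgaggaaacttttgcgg
Gpc4 promoter, chrX:52164874-52165173, minus strand: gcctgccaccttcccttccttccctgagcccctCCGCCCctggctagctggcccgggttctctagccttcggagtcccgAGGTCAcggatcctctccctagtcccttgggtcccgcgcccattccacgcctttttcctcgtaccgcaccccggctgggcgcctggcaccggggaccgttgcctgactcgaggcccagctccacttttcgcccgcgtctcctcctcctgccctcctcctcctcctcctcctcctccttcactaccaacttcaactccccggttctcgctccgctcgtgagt
Windows were matched for 6 of the 10 members, 8 in all. AGGTCA was matched 1 time in the Gpc4 window and 1 time at the upstream start of Hs6st2, and 0 times in the other 6 windows. AGGTCA occurred in 16.3% of all 32851 promoter windows of the same length. The direct repeat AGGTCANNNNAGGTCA, which contains the hexamer and is the textbook thyroid hormone response element, was in no member window and in 0.0152% of all windows. The GC box was matched 7 times in the Hs6st1 window, 4 times in that of Gpc3, and 1 time each in that of Gpc4, at the upstream start of Sulf2 and at the downstream start of Hs6st2, and 35.7% of all windows held it. TATAAA was matched 1 time each at the upstream starts of Sulf2, far from the start, and Hs6st2, and 13.6% of all windows held it. The Hs3st1 window held none of these motifs. Sulf1, Gpc1, Gpc6 and Ndst1 had no entry. Such matches describe the letters and show neither a binding site nor its absence.

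Gene counts per library ran from 10230512 to 15636832. Values are given below as a pair for each genotype, replicate 1 before replicate 2. The somatic and germ cell markers of the testis were present in each library: the Sertoli hormone gene Amh stood at 618 to 777 CPM (counts scaled to a common library total), the germ cell helicase gene Ddx4 at 49.5 to 110 CPM, and the Leydig cell hormone gene Insl3 at 34.8 to 48.0 CPM. Thra stood at 398 and 257 CPM in the wild-type pair and 237 and 194 CPM in the mutant pair, and gene counts cannot tell the engineered from the normal transcript, so the labels are not checked by it. Several cell type markers moved with genotype. The summed level of 13 skeletal muscle markers was 103 and 78.1 CPM in the wild-type pair against 2934 and 794 CPM in the mutant pair. Of these sums the marker Des alone gave 87.3 and 63.8 CPM in the wild-type pair and 246 and 110 CPM in the mutant pair. The myogenic factor gene Myog was at 0 counts in both wild-type libraries. Summed germ cell markers (8 genes) came to 712 and 477 CPM against 252 and 228 CPM, and summed Sertoli markers (8 genes) to 3888 and 4229 against 3048 and 3085 CPM. By edgeR 7 of the germ cell markers and 3 of the Sertoli markers were called lower, beside 2.52% of all tested genes. In 5 of the Sertoli markers both mutant libraries lay below both wild-type libraries, against 29% of all tested genes. Amh, Fshr and Inha overlapped between groups, while Aard went from 1227 and 1584 to 646 and 748 CPM. The part of these shifts in the results below was not tested unless a value is given, and fewer cells of a type and less RNA per cell cannot be told apart in whole testes.

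**Figure D1:**
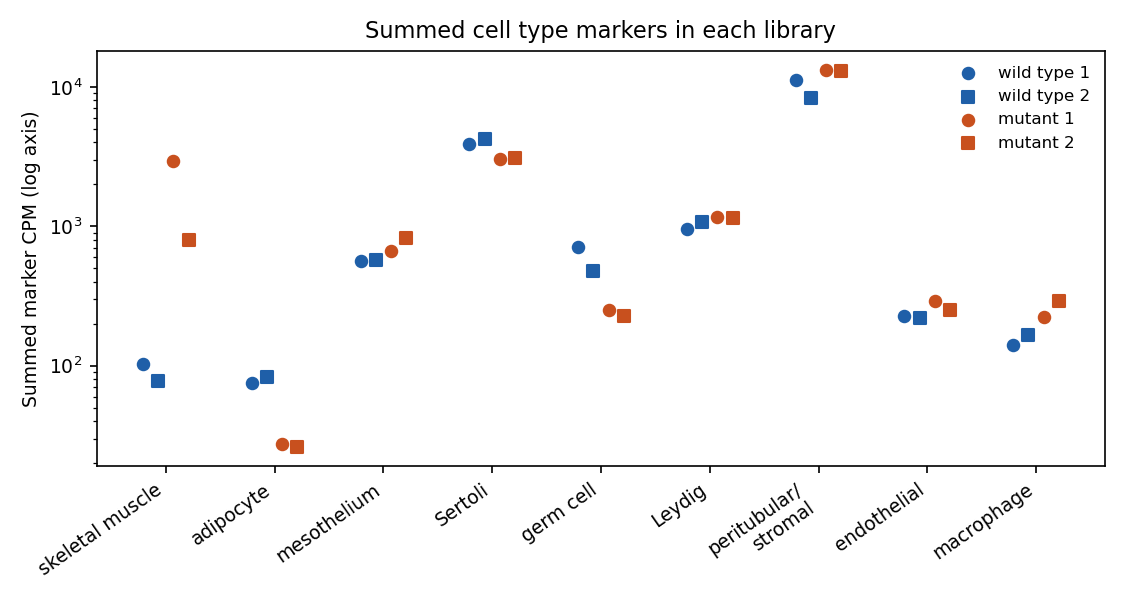
Summed CPM of each cell type marker list (log axis) in wild-type replicates 1 and 2 (blue circle and square) and mutant replicates 1 and 2 (orange circle and square). Skeletal muscle markers stand at 2934 and 794 CPM in the mutant libraries against 103 and 78.1 CPM in wild type. In wild type the marker Des alone gives 87.3 and 63.8 CPM of these sums. Germ cell and adipocyte markers are lower in both mutant libraries.

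The 2 endosulfatases and 3 of the 4 glypicans were higher in mutant testes, by 1.45-fold to 1.92-fold, while the 4 sulfotransferases and Gpc4 differed by 1.07-fold to 1.16-fold. All 10 members passed the filter on low counts. By edgeR's quasi-likelihood test 5 of the 10 (Sulf1, Sulf2, Gpc1, Gpc3 and Gpc6) were called higher at an adjusted p below 0.05 and 0 lower, and 6 had an unadjusted p below 0.05, beside 25.5% of all genes. DESeq2 called 5 and limma voom 4. Across all 14788 genes tested, edgeR called 3.15% higher and 2.52% lower, DESeq2 4.15% higher and limma voom 2.09% higher. Without wild-type replicate 1, 2 members were called higher (0.225% of all genes), and without wild-type replicate 2, 3 were (0.392%). In 7 of 10 members both mutant libraries lay above both wild-type libraries, and in none below, against 28.3% of tested genes with mutant above. The median log2 fold change of the members was 0.37, beside -0.0060 over all tested genes. Because the list was chosen on this comparison, nothing is read from these counts.

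**Figure D2:**
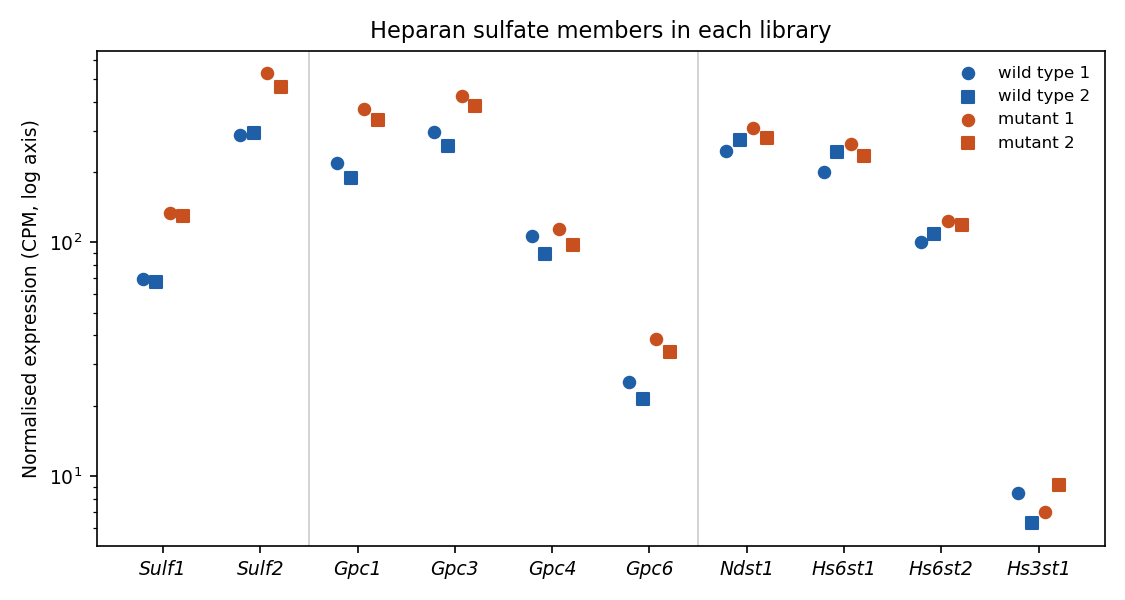
Normalised expression (CPM, log axis) of each member in wild-type replicates 1 and 2 (blue) and mutant replicates 1 and 2 (orange), with vertical lines between endosulfatases, glypicans and sulfotransferases. For Sulf1, Sulf2, Gpc1, Gpc3 and Gpc6 the orange points lie clear of the blue ones, and for Gpc4, Hs6st1 and Hs3st1 they overlap.

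Sulf1 (mm9 chromosome 1, 12708626 to 12850452, plus strand), the gene that led to the choice of the list, had 69.2 and 67.2 CPM in the wild-type pair and 133 and 129 CPM in the mutant pair. The 2 libraries of each genotype differed little, and the lower mutant value was 1.86 times the higher wild-type value. The list was chosen on this steady rise, so its evenness across libraries is a description and not a result. The log2 fold change was 0.94 ± 0.08 (SE), and it stayed between 0.92 and 0.96 when any single library was left out. Sulf2 (chromosome 2, 165898589 to 165981163, minus strand), the more abundant endosulfatase, had 288 and 293 CPM in the wild-type pair and 528 and 462 CPM in the mutant pair. Its groups did not overlap either, and its log2 fold change was 0.77 ± 0.09. Of the Sulf2 exon bases 2.65% also lie in exons of Ncoa3, a receptor coactivator gene, and the strand setting of the counting is not given in the sources used here. With single libraries left out, the log2 fold change of Sulf2 lay between 0.67 and 0.86, and it was not called without wild-type replicate 1 (0.75).

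Among the glypicans, Gpc1 (chromosome 1, 94728222 to 94756775, plus strand), a glypican abundant in brain and skeletal muscle, had 217 and 188 CPM in the wild-type pair and 372 and 334 CPM in the mutant pair. The groups were apart, and the log2 fold change was 0.80 ± 0.10, or 0.70 to 0.91 with single libraries left out. Gpc3, whose loss causes overgrowth and which restrains Hedgehog signalling, had 296 and 258 CPM against 421 and 383 CPM, a log2 fold change of 0.54 ± 0.10. Gpc6 (chromosome 14, 117324519 to 118378751, plus strand), a glypican of growing bone and other mesenchyme, had fewer reads, with 25.2 and 21.3 CPM against 38.6 and 33.8 CPM. Its log2 fold change was 0.63 ± 0.14. Gpc3 and Gpc6 were not called without either wild-type library, where the log2 fold changes were 0.64 and 0.44 for Gpc3 and 0.76 and 0.51 for Gpc6 without replicates 1 and 2, respectively. Gpc6 was also not called without mutant replicate 1, at 0.53, by limma voom and with no filter on low counts. Gpc4, a glypican that modulates Wnt and FGF signalling, had 107 and 89.2 CPM against 114 and 97.4 CPM. Those ranges overlapped, and the log2 fold change of 0.10 ± 0.12 turned to -0.02 without wild-type replicate 2 and to -0.01 without mutant replicate 1.

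Gpc3 (X chromosome, 49625603 to 49967127, minus strand) and Gpc4 (49406198 to 49518429, minus strand) are neighbours on mm9, 107 kb apart with 0 protein-coding genes between them. The third X-linked member, Hs6st2 (48740389 to 49035033, minus strand), lies 371 kb from Gpc4, with the 2 genes Usp26 and 1700080O16Rik between. Per kb of exon, Gpc3 was 2.74 and 2.85 times as high as Gpc4 in wild-type replicates 1 and 2 and 3.65 and 3.87 times in mutant replicates 1 and 2. The share of Gpc1 in the summed per-kb level of the 4 glypicans was 28.3% and 28.4% in wild type and 33.7% in each mutant library. Gpc3 held 51.0% to 52.1% in all 4 libraries, and Gpc4 went from 18.8% and 18.3% to 14.0% and 13.3%.

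The sulfotransferases showed smaller differences. Ndst1 (chromosome 18), which starts chain modification by exchanging acetyl groups for sulfate, had 245 and 273 CPM in the wild-type pair and 309 and 279 CPM in the mutant pair, a log2 fold change of 0.18 ± 0.09. The higher wild-type library and the lower mutant library were 1.02-fold apart. Hs6st1 (chromosome 1, 36125245 to 36163291, plus strand), which adds the sulfates that Sulf enzymes remove, had 201 and 244 CPM against 264 and 235 CPM, and its groups overlapped. Hs6st2, which adds the same sulfates, had 99.9 and 109 CPM against 123 and 118 CPM, with both mutant libraries above both wild-type libraries by a narrow margin. Their log2 fold changes were 0.17 ± 0.11 and 0.21 ± 0.09. Hs3st1 (chromosome 5, 40005174 to 40146714, minus strand), the 3-O-sulfotransferase of the antithrombin site, had 113 and 64 counts in wild type and 77 and 143 counts in mutant testes. At 6.27 to 9.13 CPM it was the member with the fewest reads, and its groups overlapped (0.13 ± 0.25).

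**Figure D3:**
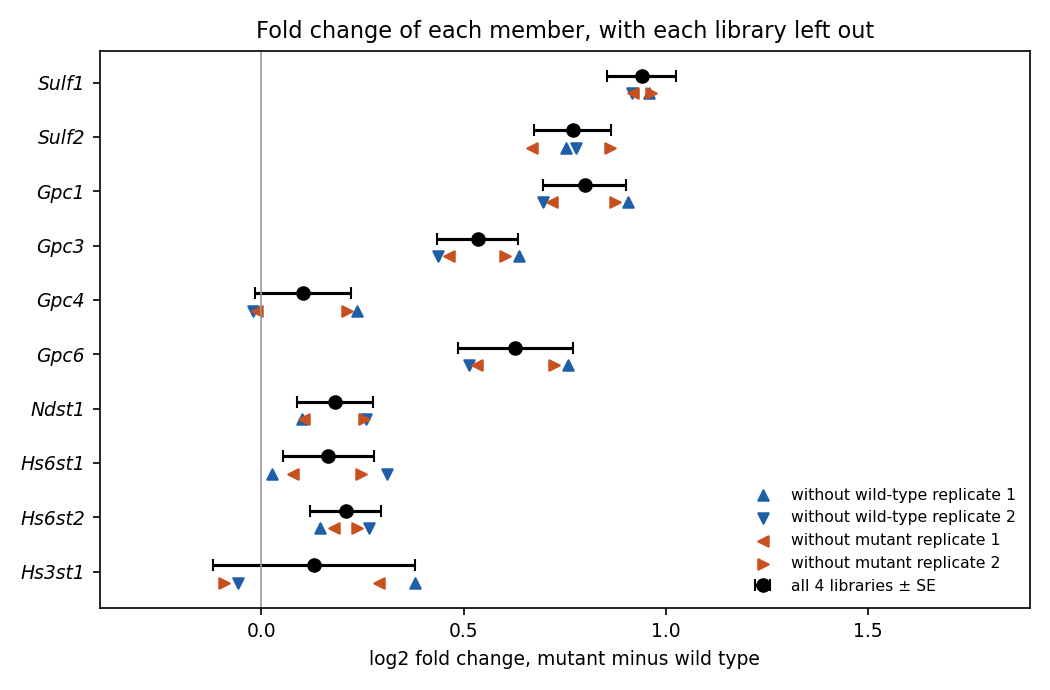
Log2 fold change, mutant minus wild type, of each member: black points with bars are the fit to all 4 libraries ± SE, and coloured triangles are fits with 1 library left out. Sulf1 stays between 0.92 and 0.96, Gpc4 and Hs3st1 fall on both sides of 0, and the other members stay above 0.

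Levels of different genes were compared per kb of exon, as CPM divided by the length of all annotated exons of a gene in mm9. In wild-type testes Gpc3 was the highest member, at 103 ± 10.1 CPM per kb (SD, n = 2), followed by Hs6st1 at 59.8 ± 8.30, Gpc1 at 56.3 ± 5.79 and Sulf2 at 49.9 ± 0.590. The libraries of Hs6st1 and Gpc1 overlapped, and so did those of the next pair, Ndst1 at 39.3 ± 3.03 and Gpc4 at 36.9 ± 4.65. Sulf1 at 14.8 ± 0.307 and Hs6st2 at 13.4 ± 0.790 followed, and Hs3st1 and Gpc6 closed the order at 3.31 ± 0.702 and 2.47 ± 0.297. In mutant testes the order was Gpc3 (149 ± 10.1), Gpc1 (98.1 ± 7.55), Sulf2 (85.1 ± 8.11), Hs6st1 (67.1 ± 5.58), Ndst1 (44.6 ± 3.25), Gpc4 (39.8 ± 4.32), Sulf1 (28.4 ± 0.631), Hs6st2 (15.4 ± 0.422), Gpc6 (3.84 ± 0.361) and Hs3st1 (3.62 ± 0.673), with overlap between Ndst1 and Gpc4 and between Gpc6 and Hs3st1. With the longest transcript as the length, Sulf2 came before Hs6st1 and Gpc1 in wild type (63.4 CPM per kb) and Hs6st2 before Sulf1 (24.0). In mutant testes Sulf2 (108) then came before Gpc1 (98.1), so these places in the order rest on the exon model.

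The enzymes that remove 6-O sulfates and those that add them can be set against each other within a library. The summed per-kb level of Sulf1 and Sulf2 was 64.5 and 64.9 CPM per kb in wild-type replicates 1 and 2 and 120 and 107 CPM per kb in mutant replicates 1 and 2. That of Hs6st1 and Hs6st2 was 66.7 and 79.6 against 86.7 and 78.2 CPM per kb. The ratio of the first sum to the second was 0.967 and 0.816 in wild type and 1.38 and 1.37 in mutant testes, so transcripts of the removing enzymes were the fewer in both wild-type libraries and the more numerous in both mutant libraries. Per kb of the longest transcript the ratio was 1.01 and 0.866 against 1.45 and 1.43, where the first wild-type library lay just above 1. Within each pair the ratios differed less between genotypes: Sulf2 was 3.29 and 3.45 times Sulf1 in wild type and 3.14 and 2.83 times in mutant testes, and Hs6st1 was 4.22 and 4.72 times Hs6st2 against 4.52 and 4.17 times.

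**Figure D4:**
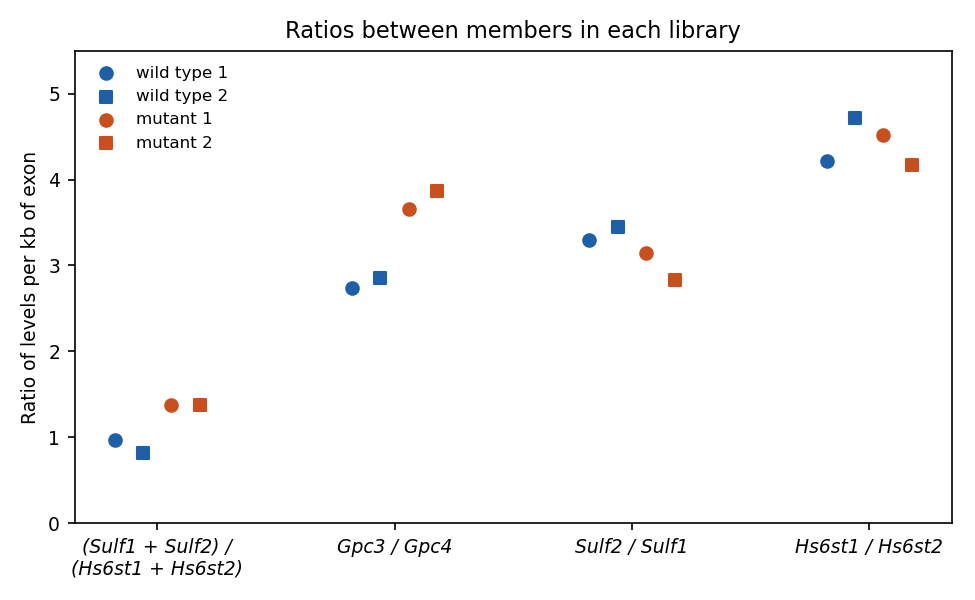
Ratios between per-kb levels of members in wild-type replicates 1 and 2 (blue) and mutant replicates 1 and 2 (orange). The ratio of endosulfatases to 6-O-sulfotransferases is 0.967 and 0.816 in wild type and 1.38 and 1.37 in mutant libraries, Gpc3 over Gpc4 is also higher in both mutant libraries, and Hs6st1 over Hs6st2 overlaps between groups.

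Muscle transcripts were 3.70 times as high in mutant replicate 1 as in mutant replicate 2. The 5 members called higher were 1.03 to 1.14 times as high in replicate 1 as in replicate 2. Without mutant replicate 1, the library with the most muscle transcripts, the log2 fold changes were 0.92 for Sulf1, 0.67 for Sulf2, 0.72 for Gpc1, 0.46 for Gpc3 and 0.53 for Gpc6. The remaining mutant library still held 794 CPM of summed muscle markers, against 103 and 78.1 CPM in wild type. Of these sums Des gave 110 CPM in that mutant library and 87.3 and 63.8 CPM in wild type. The part of muscle in the members' values was not tested. Of 7 mesothelial markers 4 were called higher by edgeR, beside 3.15% of all tested genes. Among them was Upk3b, a uroplakin of the serosal surface. It had 85.7 and 103 CPM in the wild-type pair and 162 and 209 CPM in the mutant pair (adjusted p = 0.0127). In 5 of the 7 both mutant libraries lay above both wild-type libraries, against 28.3% of all tested genes. Krt8 (75.6 and 66.9 against 63.6 and 97.2 CPM) and Krt18 (94.3 and 91.3 against 60.9 and 107 CPM) overlapped between groups. Summed mesothelial markers were at 559 and 576 against 662 and 828 CPM, though the most abundant, Wt1, is also a Sertoli gene. Peritubular and stromal markers (10 genes) summed to 11118 and 8370 CPM in wild type and to 13281 and 12922 CPM in mutant testes. EdgeR and limma voom called 0 of them and DESeq2 1, where 5.67%, 3.93% and 6.94% of all tested genes were called, respectively. An unadjusted p below 0.05 by edgeR was seen in 5 of them, beside 25.5% of all tested genes. Most of each sum came from the collagen genes Col3a1, Col1a2 and Col1a1. The smooth muscle genes Acta2 (954 and 963 against 1021 and 901 CPM) and Tagln (384 and 381 against 383 and 341 CPM) overlapped between groups. In 5 of the 10 genes both mutant libraries lay above both wild-type libraries, and in 1, Myh11, below. Among all tested genes these shares were 28.3% and 29%. Macrophage markers (7 genes) summed to 142 and 166 against 225 and 292 CPM. EdgeR called 3 of the 7 higher, beside 3.15% of all tested genes. DESeq2 called 4 and limma voom 1, beside 6.94% and 3.93% of all tested genes called in either direction. Endosulfatases and glypicans are made by mesenchymal and surface cells in many tissues, and the part of these markers in the members' values was not tested.

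Outside the members, the heparan sulfate genes called by edgeR's test were the syndecan genes Sdc3 and Sdc4. Of 51 further genes, grouped by role, 45 were tested by edgeR, of which 1 was called higher, 1 lower and 43 were not called, and 11 had an unadjusted p below 0.05. DESeq2 called 3 of them and limma voom 2. Across all tested genes edgeR called 5.67% in either direction, DESeq2 6.94% and limma voom 3.93%, and 25.5% had an unadjusted p below 0.05 by edgeR. In 18 of the 45 both mutant libraries lay above both wild-type libraries and in 3 below, against 28.3% and 29% of all tested genes. Their median log2 fold change was 0.11, beside -0.0060 over all tested genes. Syndecans are the transmembrane family of heparan sulfate core proteins. Sdc3 had 121 and 125 CPM in the wild-type pair and 181 and 167 CPM in the mutant pair, a rise of 1.42-fold (log2 0.50 ± 0.09, adjusted p = 0.0218). Sdc4, which acts with integrins at focal adhesions, fell from 400 and 403 CPM to 304 and 292 CPM (log2 fold change -0.43 ± 0.08, adjusted p = 0.0277). In both genes the groups did not overlap. The call of Sdc3 was lost without either wild-type library, where its log2 fold changes were 0.48 and 0.52 without replicates 1 and 2, respectively. The call of Sdc4 was lost whichever library was left out, at log2 fold changes of -0.46 to -0.40.

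Of the other 8 core proteins tested edgeR and limma voom called 0 and DESeq2 1, and 3 had an unadjusted p below 0.05 by edgeR. The gene called by DESeq2 was the basement membrane proteoglycan gene Col18a1 (log2 fold change 0.34 ± 0.09, adjusted p = 0.0566 by edgeR and 0.00966 by DESeq2). Agrn and Hspg2, which encode proteoglycans of the same kind, were at 0.35 ± 0.11 and 0.03 ± 0.14. Of the 11 genes that build the linker and the chain, edgeR, DESeq2 and limma voom called 0, and 2 had an unadjusted p below 0.05, and the median was 0.03. B3gat3, which finishes the linker, was at -0.32 ± 0.09 (adjusted p = 0.0837), and the chain polymerase gene Ext2 at 0.19 ± 0.08 (adjusted p = 0.183). Of 12 other chain-modifying genes 6 were tested and edgeR, DESeq2 and limma voom called 0, and 1 had an unadjusted p below 0.05. They include the 3-O-sulfotransferase gene Hs3st3b1 (0.47 ± 0.17, adjusted p = 0.133) and Ndst2 (0.21 ± 0.13, adjusted p = 0.331), while Ndst3, Ndst4, Hs3st2, Hs3st4, Hs3st5 and Hs6st3 had too few reads to test. Of 7 genes for the sulfate donor and sugar precursors edgeR, DESeq2 and limma voom called 0, and 2 had an unadjusted p below 0.05. Papss1 and Papss2, which make the donor, were at 0.28 ± 0.08 (adjusted p = 0.074) and 0.39 ± 0.15 (adjusted p = 0.159). Of 11 genes of shedding and lysosomal breakdown edgeR, DESeq2 and limma voom called 0, and 1 had an unadjusted p below 0.05, with the sulfatase gene Ids at 0.21 ± 0.09 (adjusted p = 0.192) and the glucosaminidase gene Naglu at 0.25 ± 0.11 (adjusted p = 0.216).

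**Figure D5:**
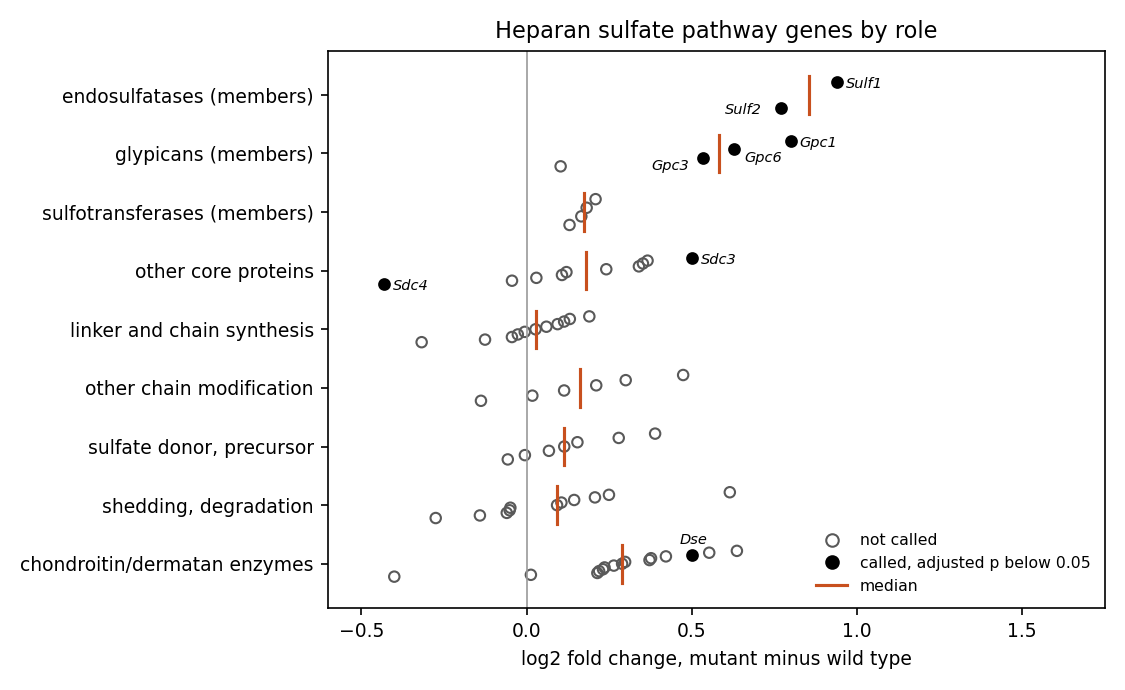
Log2 fold change, mutant minus wild type, of each tested heparan sulfate gene by role, with the members in the upper 3 rows. The lowest row holds the chondroitin and dermatan sulfate enzymes. Filled points are called at an adjusted p below 0.05, and orange ticks are medians. Outside the members, Sdc3, Sdc4 and, in the lowest row, Dse are the called genes, and the other points lie between -0.40 and 0.64.

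Genes that report signalling by heparan sulfate-dependent ligands gave no call, where 5.67% of all tested genes were called by edgeR. An unadjusted p below 0.05 was seen in 25.5% of all tested genes. In lists this short such shares can give 0 calls, so nothing about signalling is read from them. Of 9 FGF response genes edgeR, DESeq2 and limma voom called 0, and 2 had an unadjusted p below 0.05, and the median log2 fold change was 0.07. Spry1, a feedback inhibitor of FGF receptors, was at -0.27 ± 0.09 (adjusted p = 0.127) and Il17rd, another inhibitor of that pathway, at 0.23 ± 0.10 (adjusted p = 0.19). Of 9 Wnt response genes edgeR, DESeq2 and limma voom called 0, and 0 had an unadjusted p below 0.05, and a median of -0.01. Nkd1, a feedback inhibitor of Wnt, was at 0.23 ± 0.10 (adjusted p = 0.199), and the transcription factor gene Lef1 at 0.63 ± 0.30 (adjusted p = 0.237). All 4 Hedgehog response genes had positive fold changes, and edgeR, DESeq2 and limma voom called 0 of them, with 2 below 0.05 unadjusted. Gli1, the transcription factor induced by Hedgehog, had 63.2 and 99.4 CPM in the wild-type pair and 119 and 109 CPM in the mutant pair (log2 fold change 0.49 ± 0.18, adjusted p = 0.143). It passed without wild-type replicate 2, at 0.85 (adjusted p = 0.0357), and without mutant replicate 2, at 0.55 (adjusted p = 0.0462), and was at 0.19 without wild-type replicate 1. Hhip, which binds and removes Hedgehog, was at 0.30 ± 0.13 (adjusted p = 0.193).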

How the data were processed

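RNA of whole testes from 2 wild-type and 2 mutant samples was sequenced as 100-base single-end reads after oligo-dT selection, per the labels' protocols. The build was mm9, and TopHat 1.4.0, HTSeq, CASAVA 1.8.1 and DESeq2 are named, per the submitters' processing notes. How reads were counted (mode, strand and gene models) is not given in the sources used here. The authors deposited 1 table, whose columns are listed under expected or estimated counts since summary lines below the genes hold percentages. Its gene values are raw whole-number counts, so rounding changed nothing, and they sum in each library to the deposited total of unique reads in genes. Reads in no gene (13.8% to 17.3% of counted reads) and ambiguous reads (0.602% to 0.726%) were left out.

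Genes kept by edgeR's default filter (minimum count 10, minimum total 15; 14788 genes) entered a quasi-likelihood test in edgeR 4.0.16 (R 4.3.3), with TMM normalisation, genotype as the only term, the legacy and robust options off, and Benjamini-Hochberg adjustment over all tested genes. An adjusted p below 0.05 was called. CPM values are counts scaled by edgeR to the TMM-adjusted library total. SE is the log2 fold change divided by the root of F. Nothing in the labels says that libraries came from separate animals, so p-values cover the spread of these samples alone, which may be technical. Gene positions and exon lengths are from GENCODE M1 on NCBIM37 (mm9).

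The members and lists were chosen with earlier results of these data known. The text names all members, up to 4 called genes per pathway list or, failing that, the 2 of smallest p, the 5 genes closest to Sulf1, Thra, and marker lists by their sums. Amh, Ddx4, Insl3, Myog, Hspg2, Agrn and Col18a1 were added after their values were seen. So were Aard, Fshr, Inha, Des, Krt8, Krt18, Acta2, Tagln, Myh11, Col1a1, Col1a2 and Col3a1 in the marker lists. Alternatives were DESeq2 1.42.0, limma 3.58.1 voom, other normalisations, filters and quasi-likelihood options, a block for the replicate number, and omission of single libraries, where the lone library of a group is assumed to vary like the other group.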

Additional observations from a re-analysis of the deposited data

How the results depend on the processing

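The 5 called members were also called under each of 10 other settings of tool, normalisation, filter and design, except Gpc6 with no filter on low counts and by limma voom, and the Sulf1 log2 fold change ranged from 0.93 to 0.96 over them. With libraries left out in turn, 2 to 5 members were called, the lowest without wild-type replicate 1 (Sulf1 and Gpc1, where 0.225% of all tested genes were called higher), then 3 without wild-type replicate 2. Genes called higher over the whole table numbered 34 to 818 in these fits and genes called lower 40 to 477, against 466 and 373 with all libraries. Of the further heparan sulfate genes 0 to 2 were called. With no filter 282 genes were called higher and 218 lower, and limma voom called 309 higher. Members that changed sign with a library left out were Hs3st1 (log2 fold change -0.06 without wild-type replicate 2 and -0.093 without mutant replicate 2, up to 0.38 otherwise) and Gpc4 (-0.021 without wild-type replicate 2 and -0.010 without mutant replicate 1, up to 0.24 otherwise). The cause was not tested. As a block, the replicate number left 5 members called, with 512 genes called higher and 341 lower. Deviations of same-numbered libraries correlated at -0.03 over 14788 genes. With 2 libraries per genotype this cannot decide whether same-numbered libraries were paired or shared a batch. With 64 to 143 counts per library, Hs3st1 had the fewest reads and the largest SE of the members (0.25).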

Other observations

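Chondroitin and dermatan sulfate, the sister chains of heparan sulfate on the same linker, have their own enzymes, which were not among the members. Of 16 such genes 15 were tested by edgeR, with 1 called higher and 0 lower (8 at an unadjusted p below 0.05, 1 called by DESeq2 and 1 by limma voom), where 5.67% of all genes were called and 25.5% had an unadjusted p below 0.05. In 12 of the 15 both mutant libraries lay above both wild-type libraries, against 28.3% of all tested genes, and the median log2 fold change was 0.29, beside -0.0060 over all genes. The called gene was Dse, the epimerase that turns chondroitin into dermatan sulfate, with 37.6 and 38.8 CPM in the wild-type pair and 53.7 and 54.4 CPM in the mutant pair (log2 fold change 0.50 ± 0.10, adjusted p = 0.0329). Its groups did not overlap, and its call was lost whichever library was left out, at log2 fold changes of 0.47 to 0.52.

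The 5 genes whose pattern over the 4 libraries was closest to that of Sulf1, by Euclidean distance between centred log2 CPM values, were Nlgn3, Fat3, Il1rl2, Arsi and Agtr1a, at distances of 0.0872 to 0.105. The atypical cadherin gene Fat3 was at 18.9 and 17.0 CPM in wild type and 35.1 and 32.7 CPM in mutant testes, and the arylsulfatase gene Arsi at 16.7 and 17.1 against 30.9 and 30.1 CPM. Among 14787 genes ranked this way Gpc1 was number 49, Sulf2 58, Gpc6 244 and Gpc3 420. Nlgn3, Il1rl2 and Agtr1a had few reads, at 2.25 to 7.83 CPM. With 4 libraries many genes lie closer to Sulf1 than these members do, and the ranks are a description.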
